A study of Rattus norvegicus with 10 samples.

Results

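Hippocampal slices that had received the dopamine D1/D5 agonist SKF together with oligomeric amyloid-beta (Aβ) and the acetyltransferase activator CSP-TTK21 were compared with slices that had received SKF alone. The comparison covered 4 of the 10 RNA-seq libraries of the series, 2 labelled SKF_alone (here SKF) and 2 labelled CSP_TTK21_SKF_Abeta (here SKF+Aβ+CSP-TTK21), taken by their column names in the merged table of gene counts. Each library came from the CA1 field, microdissected from acute slices of adult male Wistar rats. By the paper's text each repeat of a group drew on 2 slices from 2 biological samples, and how these were combined is not stated. Both groups shared SKF and differed in Aβ and in CSP-TTK21 at the same time, so the parts of these 2 agents in a difference cannot be told apart here. The other libraries used beside them were SKF+Aβ, SKF+Aβ+CSP, in which the carbon nanosphere carried no activator, and CSP-TTK21 alone, which had neither SKF nor Aβ, with 2 libraries each. The question was what still differed from SKF when slices exposed to Aβ had also been given the activator.

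SKF, a benzazepine agonist, stimulates D1-type receptors, which in CA1 raise cyclic AMP, activate protein kinase A and lead to phosphorylation of the transcription factor CREB. CREB recruits the acetyltransferases CBP and p300, which acetylate histones at activity-dependent genes, and late long-term potentiation needs that transcription. TTK21 is a small-molecule activator of CBP and p300 that was coupled to a glucose-derived carbon nanosphere (CSP) to carry it into cells, and Aβ oligomers are the peptide assemblies linked to synaptic failure in Alzheimer's disease.

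Depth was similar across the libraries, with 7088781 and 7557322 counts for SKF, 8151626 and 7332191 for SKF+Aβ+CSP-TTK21, and 6753742 to 8473407 over all 10. Levels are given as normalized CPM (nCPM), counts scaled to a common library size after adjustment by the trimmed mean of M values, and in each sentence the 2 values of a group are its replicates 1 and 2. A count of 3 corresponded to 0.354 to 0.444 CPM, which sets the detection floor for counting error only. Pan-neuronal markers summed to 7310 and 6330 nCPM in SKF and to 7410 and 8120 in SKF+Aβ+CSP-TTK21. The CA1 pyramidal markers summed to 318 and 474 against 556 and 319 nCPM. Those of CA3 and CA2 summed to 1110 and 1080 against 1060 and 1120, and those of dentate granule neurons to 424 and 483 against 599 and 543. Markers of neighbouring fields were thus also present in tissue labelled as CA1. Oligodendrocyte markers were uneven within both groups, at 17300 and 25500 against 27400 and 16000 nCPM. SKF replicate 1 stood apart in its mitochondrially encoded genes, at 3.58% of its counts against 5.52 to 7.71% in the other 9 libraries. Its endothelial markers summed to 328 nCPM, against 209 in SKF replicate 2 and 177 to 323 in the others. Values without it are given beside the results of the lists and genes that it moved most.

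Of 15032 genes tested, 1 had an adjusted p under 0.05 in edgeR's quasi-likelihood test of SKF+Aβ+CSP-TTK21 against SKF, which is 0.00665% of the genes. It was higher, and no gene was called lower. At the same test's adjusted p under 0.1 there were 115 genes higher (0.765%) and 32 lower (0.213%), and an unadjusted p under 0.05 was reached by 2940 genes (19.6%), with 1620 higher (10.8%) and 1320 lower (8.78%). The number of calls depended strongly on the tool and on 1 library. DESeq2 without independent filtering called 158 genes higher and 72 lower (1.53%), limma called 1 higher and 0 lower, and leaving out SKF replicate 2 gave 198 higher and 137 lower in edgeR. Of the 147 genes at an adjusted p under 0.1, 131 were also called by DESeq2 without independent filtering, and in all 147 the libraries of the 2 groups did not overlap. The 2 SKF libraries and the 2 SKF+Aβ+CSP-TTK21 libraries did not overlap in 3904 genes that were higher (26.0%) and 3687 that were lower (24.5%). Without SKF replicate 1, 724 of 15596 tested genes were higher (4.64%) and 699 lower (4.48%) at an unadjusted p under 0.05, and counts of list members without it are to be read against these shares. With 2 libraries a group, an exact permutation test of a single gene cannot go below a two-sided p of 0.333.

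**Figure D1:**
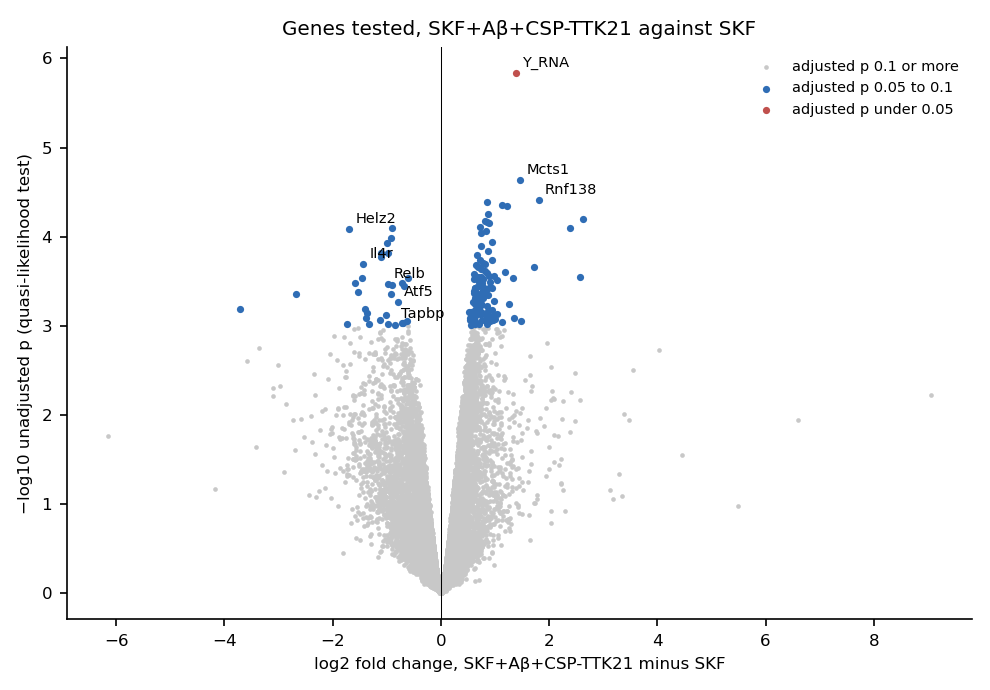
Each point is 1 of 15032 tested genes, with the log2 fold change of SKF+Aβ+CSP-TTK21 minus SKF on the horizontal axis and −log10 of the unadjusted quasi-likelihood p on the vertical axis. The 1 red point is the Y_RNA gene with an adjusted p of 0.0219, and the blue points are genes at an adjusted p between 0.05 and 0.1, most of which lie to the right of 0.

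The called gene was a Y_RNA copy (ENSRNOG00000060430), a small non-coding RNA of the kind bound by the Ro60 and La proteins. It stood at 13.8 and 12.6 nCPM in SKF and at 35.0 and 34.2 in SKF+Aβ+CSP-TTK21, and it rose by a log2 fold change of 1.39 (SE 0.17, adjusted p = 0.0219, edgeR). The replicates lay close together and far from the other group. The copy was at 41.5 and 40.2 nCPM in SKF+Aβ, at 60.4 and 59.7 in SKF+Aβ+CSP and at 27.7 and 36.6 in CSP-TTK21 alone, so every other library of the series was above both SKF libraries. The adjusted p was 0.0855 without SKF replicate 1, and 0.142 and 0.106 without SKF+Aβ+CSP-TTK21 replicates 1 and 2, with log2 fold changes of 1.33 to 1.45 over the 4 fits that left out a library. A second tested Y_RNA copy (ENSRNOG00000056608) was at 9.54 and 8.81 nCPM against 18.7 and 18.8, a log2 fold change of 1.03 (SE 0.21) with an adjusted p of 0.0858. Ssb, which encodes La itself, was at 58.9 and 65.7 against 121 and 104 nCPM, with a log2 fold change of 0.85 (SE 0.14) and an adjusted p of 0.0800. Copies of such RNAs are nearly identical, and how reads that fit several copies were assigned is not given in the sources used here.

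Of the 286 small structural RNAs tested, 38 were higher and 23 lower at an unadjusted p under 0.05 (13.3% and 8.04%, beside 10.8% and 8.78% of all genes), and their median log2 fold change was 0.16. The split depended on 1 library, with 20 of 374 higher and 30 lower without SKF replicate 1 and 45 of 364 higher and 15 lower without SKF replicate 2. The C/D box RNA family SNORD113, transcribed from an imprinted locus, had 33 tested copies, of which 10 were higher and 0 lower at that level, with a median of 1.05, but these are near-identical copies at low counts. Its copy with the lowest p (ENSRNOG00000055085) was at 1.66 and 2.40 nCPM in SKF and at 5.88 and 7.70 in SKF+Aβ+CSP-TTK21. SNORA23 was at 0.968 and 0.668 against 4.99 and 5.28 nCPM, a log2 fold change of 2.63 (SE 0.46) with an adjusted p of 0.0800. Of the 37 tested copies of 7SK, the RNA that holds the elongation factor P-TEFb inactive, 2 were higher and 5 lower, but the copy with most of the reads (ENSRNOG00000058555) was at 3698 and 4198 nCPM in SKF and at 3586 and 3863 in SKF+Aβ+CSP-TTK21, overlapping ranges with a log2 fold change of -0.08 (SE 0.13). Structural RNAs together made up 1.00 and 1.19% of counts in SKF and 0.815 and 0.967% in SKF+Aβ+CSP-TTK21, in libraries that were depleted of ribosomal RNA and not selected for small RNA.

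**Figure D2:**
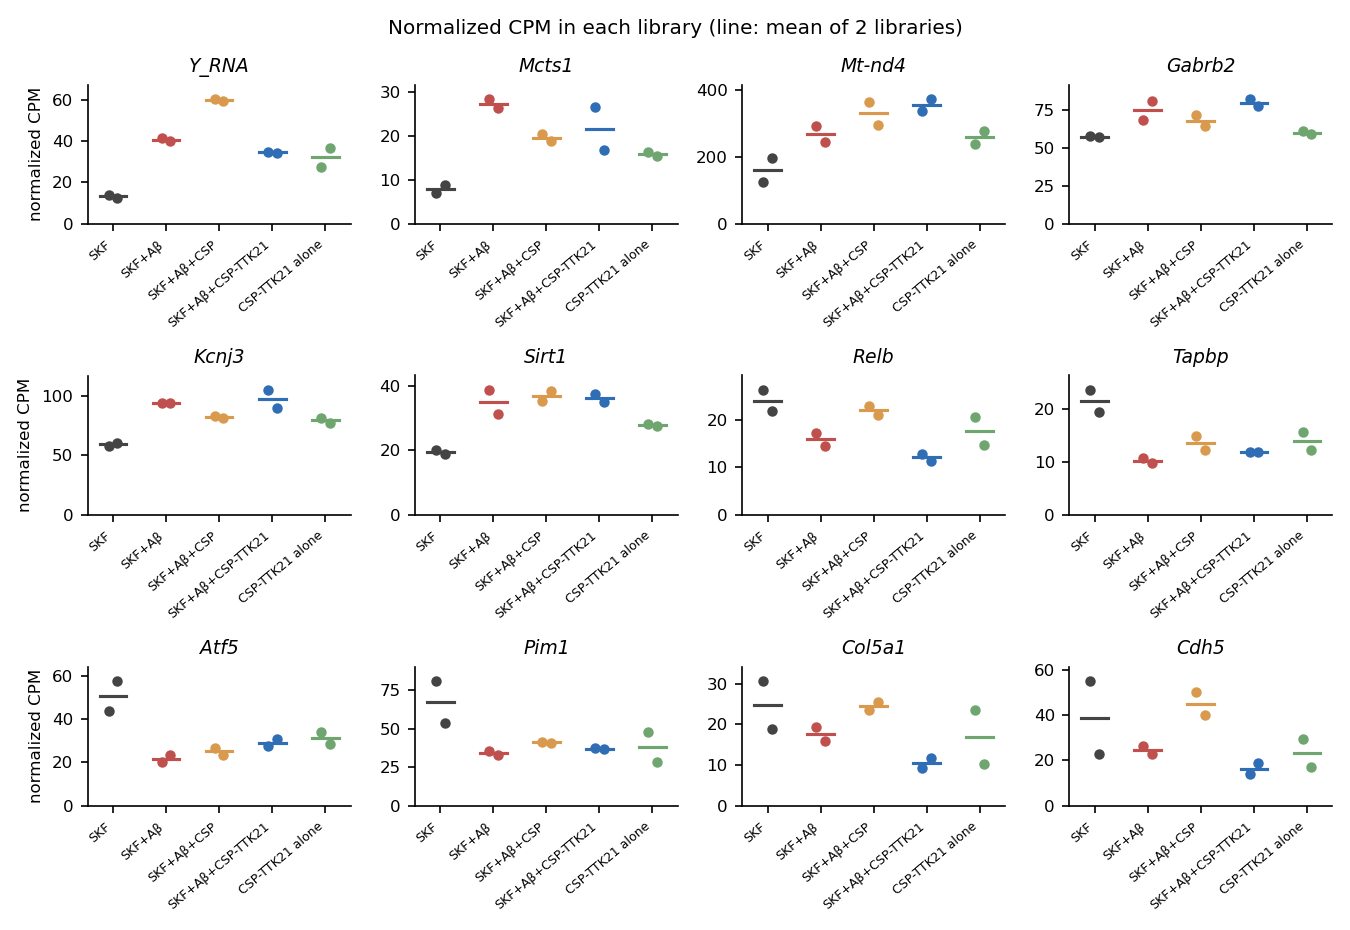
Each panel shows 1 gene, with the 10 libraries by group on the horizontal axis and nCPM on the vertical axis from 0, points for libraries and a line for the mean of 2 libraries. The Y_RNA, Mcts1 and Sirt1 points of SKF lie below those of every other group, and those of Tapbp and Atf5 lie above, while for Cdh5 and Col5a1 SKF replicate 1 is far above SKF replicate 2.

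Genes of the pathway that SKF acts on, and of the enzymes that TTK21 activates, were not called in edgeR. Crebbp, which encodes CBP, was at 277 and 273 nCPM in SKF and at 282 and 278 in SKF+Aβ+CSP-TTK21, a log2 fold change of 0.03 (SE 0.12). Ep300, which encodes p300, was at 64.0 and 67.8 against 74.1 and 60.7 nCPM, and these ranges overlapped. Among 17 tested histone acetyltransferase genes 1 was higher and 1 lower at an unadjusted p under 0.05, beside 10.8% and 8.78% of all genes, and 0 and 0 without SKF replicate 1. These were Hat1, at 6.22 and 8.54 against 15.1 and 8.98 nCPM with a log2 fold change of 0.71 (0.28 to 1.01 over the fits that left out a library), and Ing4, a subunit of an acetyltransferase complex, at 37.9 and 33.9 against 27.6 and 26.0.

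Of the 14 tested genes of dopamine receptors and D1 signalling, 1 was higher and 2 lower at an unadjusted p under 0.05, close to the 10.8% and 8.78% of all genes. Their median log2 fold change was -0.05, and it ranged from -0.14 to 0.04 over the fits that left out a library, with 15 tested. The D1 receptor gene Drd1 was low, at 1.66 and 2.67 nCPM in SKF and 4.22 and 4.14 in SKF+Aβ+CSP-TTK21, a log2 fold change of 0.94 (SE 0.36, adjusted p = 0.185, edgeR). The D5 receptor gene Drd5 was at 3.04 and 3.74 against 1.66 and 2.85 nCPM, with a log2 fold change of -0.59 (SE 0.49) that ranged from -1.04 to -0.25 over the 4 fits that left out a library. Ppp1r1b, which encodes the D1-regulated phosphatase inhibitor DARPP-32, was at 75.6 and 77.7 against 49.7 and 59.0 nCPM, a log2 fold change of -0.50 (SE 0.15, adjusted p = 0.129, edgeR), and at 36.9 and 37.4 in SKF+Aβ. The 2 groups did not overlap in any of these 3 genes, as in 26.0% (higher) and 24.5% (lower) of all genes. Adcy5, an adenylyl cyclase coupled to D1 receptors, was at 150 and 136 against 106 and 125 nCPM.

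In the list of cAMP, PKA and CREB genes, 2 of 25 were higher and 2 lower at that level, beside 10.8% and 8.78% of all genes. The median log2 fold change was -0.04, and it ranged from -0.05 to 0.02 over the fits that left out a library. Pkia, a protein inhibitor of PKA, was at 55.3 and 76.0 nCPM in SKF and at 119 and 94.8 in SKF+Aβ+CSP-TTK21 (log2 fold change 0.70, SE 0.17, adjusted p = 0.103, edgeR). Sik1, a CREB-induced kinase that restrains CREB coactivators, was at 129 and 122 against 90.9 and 103 nCPM (log2 fold change -0.37, SE 0.13). The 2 groups did not overlap in either gene, as in 26.0% (higher) and 24.5% (lower) of all genes. Neither passed the adjusted threshold in edgeR, while Pkia did in DESeq2 without independent filtering (adjusted p = 0.0257). The log2 fold change of Pkia was 0.48 without SKF replicate 1.

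Histone deacetylase genes included 2 of 17 that were higher and 4 that were lower at an unadjusted p under 0.05, beside 10.8% and 8.78% of all genes. The counts were 2 and 2 without SKF replicate 1, and without SKF+Aβ+CSP-TTK21 replicate 1 they were 1 and 1. Sirt1, a NAD-dependent deacetylase, was at 20.2 and 19.0 nCPM in SKF and at 37.6 and 35.2 in SKF+Aβ+CSP-TTK21, a log2 fold change of 0.90 (SE 0.16, adjusted p = 0.0800, edgeR). It was called by DESeq2 without independent filtering, at an adjusted p of 0.00893. In edgeR the adjusted p of Sirt1 was 0.0397 with a replicate block, 0.129 on only the 2 groups' libraries and 0.111 with library totals only. Its log2 fold change was 0.85 to 0.93 over the fits that left out a library. Hdac2, a class I deacetylase that limits memory-related transcription, was at 71.6 and 65.8 against 95.9 and 87.8 nCPM (log2 fold change 0.42, SE 0.13). The class II gene Hdac7 lay on the other side, at 13.0 and 14.02 against 5.50 and 7.84 nCPM (log2 fold change -1.02, SE 0.34).

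Immediate early transcription factors, which neurons switch on within minutes of activity, included 0 of 21 higher and 4 lower than in SKF at an unadjusted p under 0.05, beside 10.8% and 8.78% of all genes, with a median log2 fold change of -0.29. Without SKF replicate 1 the count was 1 lower and the median -0.15. Fosl2, an AP-1 subunit, was at 82.5 and 43.5 nCPM in SKF and at 30.0 and 39.1 in SKF+Aβ+CSP-TTK21 (log2 fold change -0.87, SE 0.26, and -0.35 without SKF replicate 1). Maff, a small Maf factor, was at 105 and 103 against 86.3 and 74.3 nCPM, with a log2 fold change of -0.37 (SE 0.15). The classic markers Fos, at 489 and 599 against 427 and 528 nCPM, and Egr1, at 557 and 596 against 512 and 576, overlapped between the groups. Npas4, a neuron-specific activity factor, ranged from 43.7 to 135 nCPM within SKF and from 25.8 to 78.3 within SKF+Aβ+CSP-TTK21, so its spread between replicates exceeded the difference.

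Among 22 activity-induced effector genes 2 were higher and 4 lower at that level, beside 10.8% and 8.78% of all genes, and 1 and 2 without SKF replicate 1. Pim1, a kinase induced by activity and cytokines, was at 80.9 and 53.9 nCPM in SKF and at 37.5 and 36.8 in SKF+Aβ+CSP-TTK21 (log2 fold change -0.86, SE 0.23, adjusted p = 0.109, edgeR, and -0.55 on the log2 scale without SKF replicate 1). Gadd45b, which takes part in activity-driven DNA demethylation, was at 136 and 132 against 90.0 and 89.5 nCPM (log2 fold change -0.58, SE 0.16), with close replicates in both groups. Arc, a synaptic plasticity gene, was at 445 and 226 against 162 and 213 nCPM, and Bdnf at 158 and 85.3 against 87.2 and 105. For both of these SKF replicate 1 was far above SKF replicate 2, and without it the log2 fold changes were -0.29 and 0.16. The feedback inhibitors of MAP kinase signalling had 0 of 14 higher and 3 lower, and 0 and 1 without SKF replicate 1. Spred3 was at 25.02 and 20.4 against 13.0 and 15.4 nCPM, and Dusp2, a MAP kinase phosphatase, at 16.04 and 6.14 against 4.47 and 4.85, with a log2 fold change of -1.25 that was -0.41 without SKF replicate 1.

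GABA receptor genes, which encode the inhibitory receptors of CA1, were the list of receptors with the largest share of members higher than in SKF. Of 15 tested, 10 were higher and 0 lower at an unadjusted p under 0.05, against 10.8% higher among all genes, and the median log2 fold change was 0.40 against -0.01 for all genes. Gabrb2, a beta subunit gene, was at 57.7 and 57.3 nCPM in SKF and at 82.1 and 77.6 in SKF+Aβ+CSP-TTK21 (log2 fold change 0.47, SE 0.14, adjusted p = 0.124, edgeR). The alpha subunit gene Gabra2 was at 145 and 185 against 249 and 256 nCPM, and Gabra4 at 92.6 and 123 against 195 and 141. The groups did not overlap in these 2 genes, as in 26.0% (higher) of all genes. Without SKF replicate 1 the list had 4 of 15 higher and a median of 0.34, beside 4.64% of all genes higher in that fit, and without SKF+Aβ+CSP-TTK21 replicate 1 it had 5. Gad2, an interneuron marker that makes GABA, was at 144 and 168 against 225 and 215 nCPM, and the interneuron markers summed to 622 and 681 against 745 and 794. Of 9 tested interneuron markers 2 were higher and 0 lower at an unadjusted p under 0.05, beside 10.8% and 8.78% of all genes. The log2 fold changes of 6 lay above 0 and those of 3 below, from -0.93 to 0.59. Their median was 0.23, and 0.15 without SKF replicate 1. The 9 tested dentate granule markers had a median log2 fold change of 0.36, with 8 above 0 and 1 below. The part of interneuron or dentate granule content in the receptor values was not tested. In bulk tissue the number of cells of a type and the RNA per cell cannot be told apart.

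Glutamate receptor and postsynaptic scaffold genes went both ways, with 6 of 35 higher and 5 lower at that level, beside 10.8% and 8.78% of all genes, and a median log2 fold change of 0.02. There were 2 higher and 1 lower without SKF replicate 1. The AMPA receptor subunit gene Gria2, which sets calcium permeability, was at 753 and 852 nCPM in SKF and at 1308 and 1072 in SKF+Aβ+CSP-TTK21 (log2 fold change 0.57, SE 0.14, adjusted p = 0.108, edgeR). The kainate receptor gene Grik2 was at 106 and 115 against 150 and 155 nCPM (log2 fold change 0.46, SE 0.13). Potassium channel genes had 3 of 24 higher and 1 lower, close to those shares. Kcnj3, a G-protein-gated inward rectifier that lies downstream of GABA-B receptors, was at 58.2 and 60.5 against 105 and 90.5 nCPM (log2 fold change 0.72, SE 0.13, adjusted p = 0.0800, edgeR), and Kcnn2, a calcium-activated channel of the afterhyperpolarization, at 14.2 and 14.7 against 22.6 and 21.7. None of 28 synaptic vesicle and release genes reached an unadjusted p under 0.05 in the main edgeR fit. With no filter on low counts 4 of 28 were lower at that level, beside 7.64% of all genes in that fit.

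**Figure D3:**
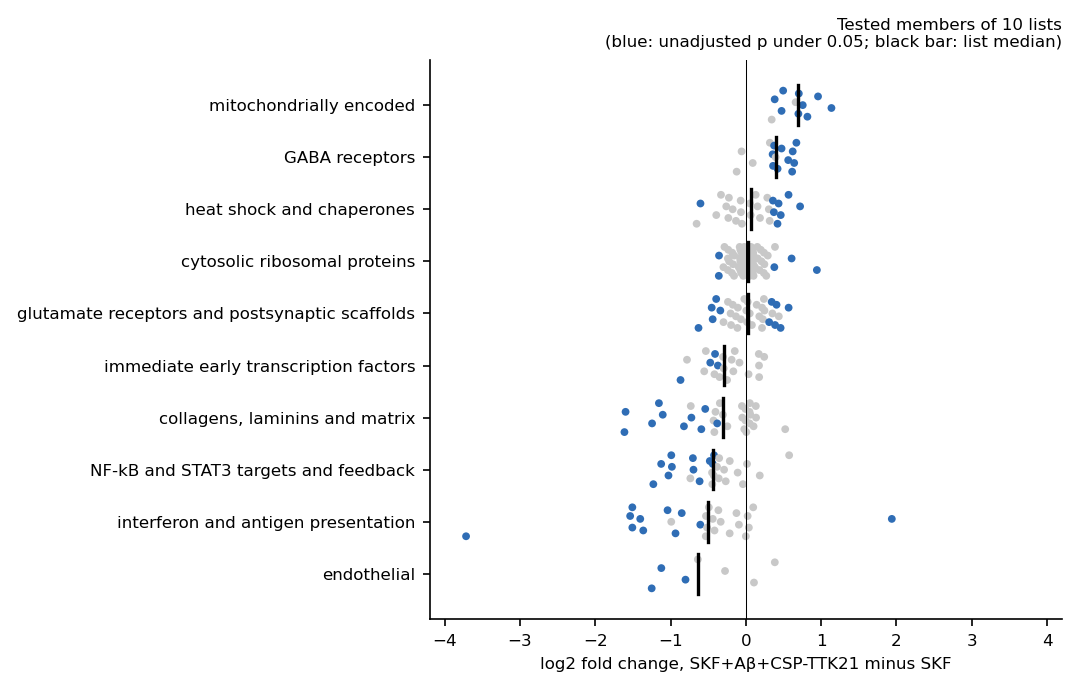
Points are the tested members of 10 gene lists, with the log2 fold change of SKF+Aβ+CSP-TTK21 minus SKF on the horizontal axis, blue where the unadjusted p was under 0.05 and black bars at list medians. GABA receptor and mitochondrially encoded genes lie mostly to the right of 0 and NF-kB, interferon and matrix genes mostly to the left, and 1 member, RT1-N2 at 9.05, lies beyond the axis.

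NF-kB dimers are held in the cytoplasm by inhibitor proteins and, once released by cytokine or injury signals, switch on inflammatory genes together with their own inhibitors, and interferon signalling raises the genes that load peptides onto class I molecules. Because many of these genes are known targets of NF-kB, the 250 bases before the RefSeq start were searched on both strands for the kappaB consensus. A match was present in 12 of the 23 NF-kB and STAT3 list genes that had a window (52.2%), in 10 of the 23 interferon and antigen presentation genes (43.5%) and in 4.24% of the windows of 10874 tested genes. Many members were listed as known targets, so a high share is built into the lists. Among genes lower at an unadjusted p under 0.05 the share was 7.06% of 992, and among genes higher it was 3.46% of 1186. The same windows were also searched for the CRE, the site that CREB reads. It was present in 2.85% of all 10874 windows, in 3.43% of those of lower genes and in 3.54% of those of higher genes. The NF-kB and STAT3 list and the interferon and antigen presentation list each had 0 genes with a CRE. Immediate early transcription factors had it in 3 of 15 windows and activity-induced effectors in 2 of 17. With or without a kappaB match, 11 of 26 tested NF-kB and STAT3 genes and 10 of 28 interferon and antigen presentation genes were lower at an unadjusted p under 0.05. Among all genes 8.78% were lower and 10.8% higher. Of the 22 list members with a kappaB match, 10 were lower at that level and 0 were higher, and whether a match went with lower values was not tested. The log2 fold changes of Tlr2, Vcam1, RT1-A1, B2m and Nfkbiz lay above 0, from 0.02 to 0.58. The windows of 4 members among the 10 are shown with the match in capitals, since they carry the letters that the factor reads, and a match is no measure of binding.
Nfkb2 (GRCr8 chr1:255108124-255108373, plus strand): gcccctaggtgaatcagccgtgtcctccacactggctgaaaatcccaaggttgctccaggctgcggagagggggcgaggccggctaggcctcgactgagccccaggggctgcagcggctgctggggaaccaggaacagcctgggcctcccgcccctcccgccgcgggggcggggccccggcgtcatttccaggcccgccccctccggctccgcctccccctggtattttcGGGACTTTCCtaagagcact
Bcl3 (GRCr8 chr1:88613556-88613805, minus strand): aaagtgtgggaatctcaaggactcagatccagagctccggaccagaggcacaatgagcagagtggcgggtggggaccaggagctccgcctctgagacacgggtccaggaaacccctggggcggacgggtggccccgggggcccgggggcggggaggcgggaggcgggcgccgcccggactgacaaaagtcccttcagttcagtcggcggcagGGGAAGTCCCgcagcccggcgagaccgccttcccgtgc
Tapbp (GRCr8 chr20:4967878-4968127, minus strand): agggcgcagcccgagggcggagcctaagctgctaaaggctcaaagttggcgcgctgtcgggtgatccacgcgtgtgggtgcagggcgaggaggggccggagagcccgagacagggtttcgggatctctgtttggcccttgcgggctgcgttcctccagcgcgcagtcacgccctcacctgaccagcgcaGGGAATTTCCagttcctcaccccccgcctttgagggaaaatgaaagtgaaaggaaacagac
Irf1 (GRCr8 chr10:38417685-38417934, plus strand): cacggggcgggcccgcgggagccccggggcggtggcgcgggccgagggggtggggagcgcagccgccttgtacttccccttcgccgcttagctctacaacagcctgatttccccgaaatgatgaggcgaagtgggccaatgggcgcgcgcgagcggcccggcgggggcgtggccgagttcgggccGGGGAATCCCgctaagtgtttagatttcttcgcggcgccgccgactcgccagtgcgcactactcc

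Of 26 tested NF-kB and STAT3 genes, 0 were higher and 11 lower at an unadjusted p under 0.05, against 8.78% lower among all genes, with a median log2 fold change of -0.43. Relb, a subunit of the non-canonical pathway, was at 26.3 and 21.9 nCPM in SKF and at 12.9 and 11.4 in SKF+Aβ+CSP-TTK21 (log2 fold change -0.98, SE 0.21, adjusted p = 0.0858, edgeR). Its partner Nfkb2 was at 47.8 and 35.2 against 22.8 and 19.0 nCPM (log2 fold change -0.99, SE 0.27, adjusted p = 0.114, edgeR). The feedback gene Zc3h12a, an RNase that destroys cytokine mRNAs, was at 29.7 and 23.9 against 17.6 and 15.4 nCPM. Socs3, an inhibitor of STAT3 signalling, was at 55.2 and 57.9 against 30.0 and 39.5. The groups did not overlap in these feedback genes, as in 24.5% (lower) of all genes. Bcl3, a nuclear cofactor of NF-kB, was at 7.05 and 3.07 against 2.69 and 1.57 nCPM, with a log2 fold change of -1.23 (SE 0.47) that became -0.53 without SKF replicate 1. The list had 7 lower members and a median of -0.22 without SKF replicate 1, and 7 and -0.17 without SKF+Aβ+CSP-TTK21 replicate 2.

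Interferon and antigen presentation genes had 2 of 28 higher and 10 lower at that level, beside 10.8% and 8.78% of all genes, with a median log2 fold change of -0.50. Without SKF replicate 1, with 29 tested, 2 were higher and 6 lower and the median was -0.54. Tapbp, the chaperone tapasin, was at 23.5 and 19.4 nCPM in SKF and at 11.9 and 11.8 in SKF+Aβ+CSP-TTK21 (log2 fold change -0.85, SE 0.20, adjusted p = 0.0994, edgeR). The peptide transporter gene Tap1 was at 33.6 and 25.6 against 14.3 and 16.7 nCPM, and the transcription factor gene Irf1 at 126 and 141 against 75.7 and 99.9. Class I genes are close copies of each other and differ between rats, so their counts are uncertain. RT1-CE7 was at 22.1 and 16.2 against 7.41 and 5.70 nCPM, and RT1-A3 at 4.29 and 3.20 against 0.384 and 0.143, where the libraries of SKF+Aβ+CSP-TTK21 held 3 and 1 counts, at or under the floor. RT1-N2 was at 0 counts in both SKF libraries and at 10.4 and 7.70 nCPM in SKF+Aβ+CSP-TTK21, but it was also at 0 in 1 library each of SKF+Aβ+CSP and CSP-TTK21 alone. Its presence thus varied between libraries of the same group.

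The comparison with SKF+Aβ+CSP uses none of the SKF libraries but shares the 2 SKF+Aβ+CSP-TTK21 libraries, so it is set beside the one with SKF and is no separate evidence on the lists. There, 6 of the 26 NF-kB and STAT3 genes and 10 of the 28 interferon and antigen presentation genes were lower in SKF+Aβ+CSP-TTK21 at an unadjusted p under 0.05, 0 and 0 were higher, and 5.61% of all genes were lower. Against SKF+Aβ each list had 1 higher and 1 lower, beside 2.52% and 4.06% of all genes. Relb stood at 17.3 and 14.5 nCPM in SKF+Aβ and at 23.0 and 21.1 in SKF+Aβ+CSP, and Tapbp at 10.8 and 9.69 and at 14.9 and 12.3.

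Cytokine and chemokine genes had 2 of 21 higher and 3 lower at that level, beside 10.8% and 8.78% of all genes, and 15 of 21 had a log2 fold change below 0. With 22 tested, 1 was higher and 1 lower without SKF replicate 1, and 0 were higher and 7 lower without SKF+Aβ+CSP-TTK21 replicate 1. Csf3, the granulocyte colony-stimulating factor, was at 31.7 and 4.14 nCPM in SKF and at 2.43 and 0.428 in SKF+Aβ+CSP-TTK21, a log2 fold change of -3.59 (SE 0.97) that was -1.50 without SKF replicate 1. Il1a was at 33.9 and 23.2 against 51.1 and 35.6 nCPM (log2 fold change 0.61, SE 0.21, and 0.32 to 0.89 over the fits that left out a library). Il6, at 32.9 and 17.4 against 46.3 and 15.8 nCPM, and the chemokine Cxcl1, at 189 and 36.5 against 86.0 and 24.7, overlapped, and in both of them and in both groups replicate 1 was above replicate 2. Microglial markers summed to 234 and 385 against 291 and 405 nCPM. Named after their values were seen, the interleukin-4 receptor gene Il4r was at 72.6 and 33.2 against 19.7 and 19.4 nCPM (log2 fold change -1.44, SE 0.28, adjusted p = 0.0858, edgeR, and -0.78 on the log2 scale without SKF replicate 1) and the interferon-inducible helicase gene Helz2 at 32.2 and 17.4 against 8.05 and 7.27 (log2 fold change -1.69, SE 0.30, adjusted p = 0.0800, edgeR).

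In the collagen and endothelial genes named here SKF replicate 1 was above SKF replicate 2. Of 31 collagens, laminins and other matrix genes, 0 were higher and 10 lower at an unadjusted p under 0.05, beside 10.8% and 8.78% of all genes, with a median log2 fold change of -0.30, and without SKF replicate 1 the count was 2 and the median -0.11. The basement membrane collagen genes Col4a1, at 290 and 122 nCPM in SKF against 95.6 and 89.3 in SKF+Aβ+CSP-TTK21, and Col4a2, at 277 and 123 against 85.9 and 100, had log2 fold changes of -1.16 and -1.10 that were -0.41 and -0.42 without it. Col5a1, a fibrillar collagen gene, was at 30.6 and 19.0 against 9.20 and 11.7 nCPM, and its log2 fold change of -1.25 (SE 0.33) was -0.88 without SKF replicate 1.

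Of 7 tested endothelial markers, 0 were higher and 3 lower at that level (8.78% lower among all genes), with a median of -0.64, and without SKF replicate 1 the count was 0 and the median -0.25. Cdh5, the cadherin of endothelial junctions, was at 54.9 and 23.0 against 14.1 and 18.7 nCPM, and the VEGF receptor genes Flt1 at 75.5 and 45.8 against 35.3 and 34.2 and Kdr at 36.5 and 13.8 against 14.1 and 8.84. Their log2 fold changes of -1.25, -0.80 and -1.12 were -0.51, -0.41 and -0.27 without SKF replicate 1. The endothelial markers summed to 328 and 209 nCPM in SKF and 187 and 177 in SKF+Aβ+CSP-TTK21, and the mural markers to 117 and 96.0 against 90.6 and 90.2. The part of vessel content in the matrix values, and in those of the inflammatory lists, was not tested. Of 7 tested markers of fibroblasts and meninges 1 was higher and 1 lower, with a median of -0.38, and the higher one was Dcn, at 3.73 and 5.34 against 8.05 and 14.4 nCPM.

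Mitochondrially encoded genes were higher in SKF+Aβ+CSP-TTK21, with 9 of 11 tested at an unadjusted p under 0.05, 0 lower, beside 10.8% higher among all genes, and a median log2 fold change of 0.70. Mt-nd4, a complex I subunit, was at 125 and 197 nCPM in SKF and at 337 and 372 in SKF+Aβ+CSP-TTK21 (log2 fold change 1.14, SE 0.19, adjusted p = 0.0800, edgeR). Mt-co1, a complex IV subunit, was at 6561 and 11900 against 17090 and 18800 nCPM (log2 fold change 0.96, SE 0.23, and 0.58 without SKF replicate 1). These genes were lowest in SKF replicate 1, and without it 3 of 11 were higher and the median was 0.34. The table held 11 of the 15 genes listed, so the list is incomplete. Nuclear genes of oxidative phosphorylation, of which 51 of 66 were matched, had 9 of 50 higher and 1 lower, beside 10.8% and 8.78% of all genes, and a median of 0.13, and without SKF replicate 1 they had 3 of 50 higher, 0 lower and a median of 0.005. Uqcrc2, of complex III, was at 102 and 113 against 170 and 143 nCPM, and Ndufs5, of complex I, at 17.6 and 20.8 against 49.5 and 36.2.

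Cytosolic ribosomal protein genes had 3 of 61 higher and 2 lower than in SKF at that level, beside 10.8% and 8.78% of all genes, with 1 and 5 without SKF replicate 1 and 8 and 0 without SKF replicate 2. Rpl39 was at 13.4 and 17.9 against 30.0 and 30.2 nCPM (log2 fold change 0.94, SE 0.20, adjusted p = 0.0858, edgeR). Against SKF+Aβ the same list had 23 of 61 higher, where 2.52% of all genes were higher, and against SKF+Aβ+CSP it had 17, where 3.17% were. Ribosomal protein genes have many processed copies, so reads may be split among them.

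**Figure D4:**
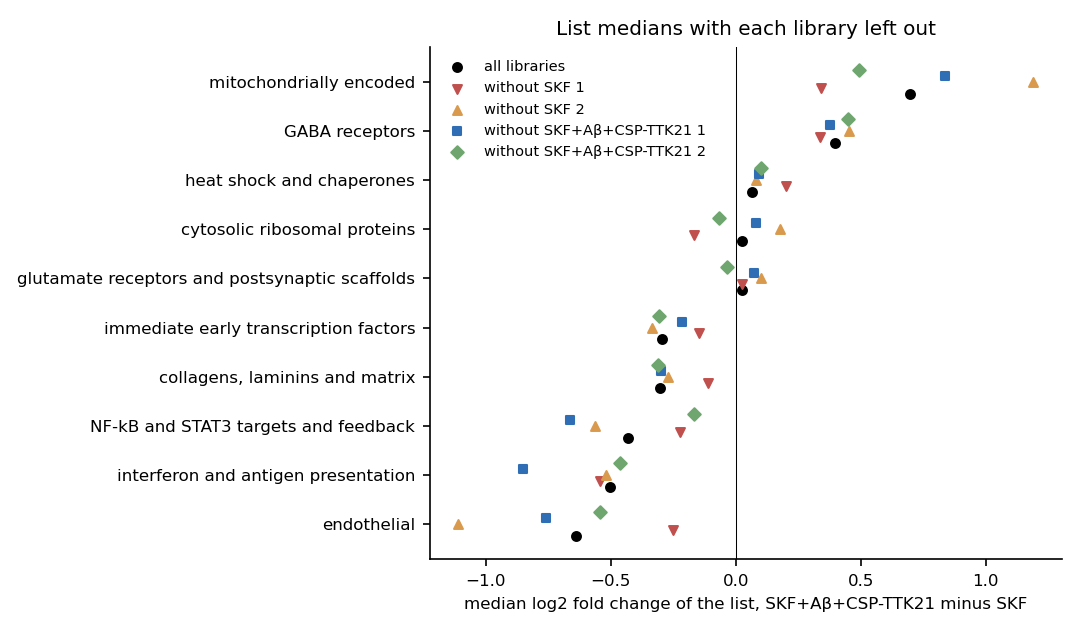
The horizontal axis is the median log2 fold change of each of 10 lists, SKF+Aβ+CSP-TTK21 minus SKF, with all libraries (black) and with each of the 4 libraries of the comparison left out. Without SKF replicate 1 the medians of mitochondrially encoded, matrix and endothelial genes come closest to 0, at 0.34, -0.11 and -0.25, and the medians of ribosomal protein and postsynaptic genes cross 0 between fits.

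Stress response genes gave values on both sides. In the list of the integrated stress response, which slows translation initiation and favours a few mRNAs, 1 of 26 was higher and 4 lower at an unadjusted p under 0.05, beside 10.8% and 8.78% of all genes, and 2 and 2 without SKF replicate 1. Mcts1, which acts in translation reinitiation, was at 6.91 and 8.81 nCPM in SKF and at 26.6 and 16.8 in SKF+Aβ+CSP-TTK21 (log2 fold change 1.47, SE 0.23, adjusted p = 0.0800, edgeR). Its adjusted p was 0.000827 in DESeq2 without independent filtering, and in edgeR it was 0.0264 and 0.0485 without replicate 2 of SKF or of SKF+Aβ+CSP-TTK21 but 0.468 and 0.522 without replicate 1 of either. Atf5, a stress-induced transcription factor, was at 43.8 and 57.4 against 27.5 and 30.8 nCPM (log2 fold change -0.80, SE 0.18, adjusted p = 0.0915, edgeR), and at 20.0 and 23.6 in SKF+Aβ. Of 27 heat shock and chaperone genes 7 were higher and 1 lower, and without SKF replicate 1, with 28 tested, 9 were higher and 1 lower, beside 4.64% and 4.48% of all genes in that fit. Without SKF+Aβ+CSP-TTK21 replicate 1 they had 2 higher and 2 lower. Hsf2, a heat shock transcription factor gene, was at 38.4 and 44.9 against 73.5 and 63.7 nCPM (log2 fold change 0.72, SE 0.15), while the co-chaperone gene Bag3 was at 79.4 and 80.6 against 47.9 and 57.5 (log2 fold change -0.60, SE 0.15).

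TGF-beta and BMP genes had 4 of 32 higher and 3 lower at that level, close to the 10.8% and 8.78% of all genes, with 1 and 1 without SKF replicate 1 and 7 and 2 without SKF replicate 2, and the receptor genes Acvr2a, at 29.9 and 33.5 nCPM in SKF against 47.9 and 49.2, and Tgfbr1, at 15.5 and 26.8 against 36.1 and 33.1, had the lowest p values. The log2 fold change of Tgfbr1 was 0.71 with all libraries and 0.35 without SKF replicate 1. Tgfb1 itself was at 21.8 and 27.0 against 15.98 and 23.8 nCPM and overlapped. Wnt genes, with 3 of 32 higher and 3 lower, were likewise close to the shares of all genes, with Lgr4, a receptor for R-spondins, at 30.1 and 41.7 against 57.5 and 52.6 nCPM and Fzd3, a Frizzled receptor, at 61.7 and 66.5 against 92.9 and 85.1. The log2 fold change of Lgr4 was 0.62 with all libraries and 0.39 without SKF replicate 1. Wnt10b was near the floor, at 2.21 and 1.07 against 0.639 and 0.855 nCPM, and Wnt3a did not pass the filter on low counts.

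Genes of amyloid precursor processing and Alzheimer risk had 4 of 26 higher and 3 lower, beside 10.8% and 8.78% of all genes, with a median log2 fold change of -0.04, and without SKF replicate 1 they had 0 higher and 3 lower. App, the precursor of Aβ, was at 1694 and 1335 nCPM in SKF and at 1492 and 1329 in SKF+Aβ+CSP-TTK21, overlapping ranges with a log2 fold change of -0.10 (SE 0.14). The risk genes Bin1, a membrane-curving endocytosis protein, and Abca7, a lipid transporter, did not overlap, as in 24.5% (lower) of all genes. Bin1 was at 417 and 414 against 335 and 299 nCPM, with a log2 fold change of -0.39 (SE 0.14). Abca7 was at 37.6 and 31.1 against 20.3 and 27.9, with a log2 fold change of -0.51 (SE 0.20). The latter ranged from -0.77 to -0.30 over the fits that left out a library. S100b, an astrocyte protein, was at 747 and 942 against 838 and 1026 nCPM.

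Other single genes at an adjusted p under 0.1 were named after their values were seen. Scai was at 22.4 and 24.4 nCPM in SKF and at 41.3 and 40.8 in SKF+Aβ+CSP-TTK21 (log2 fold change 0.81, SE 0.14), and the ubiquitin ligase gene Rnf138 at 2.07 and 3.07 against 10.2 and 7.84 (log2 fold change 1.81, SE 0.30), each with an adjusted p of 0.0800 in edgeR. Both were also above the 2 SKF libraries in each library of the other 3 groups.

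Calls against the other Aβ-exposed groups were few or 0, depending on the tool. Compared with SKF+Aβ, 0 of 15032 genes passed an adjusted p under 0.05 in edgeR, with 379 higher and 611 lower at an unadjusted p under 0.05 (2.52% and 4.06%), and DESeq2 and limma called 0. Compared with SKF+Aβ+CSP, edgeR and limma called 0, DESeq2 called 22, the edgeR fit on only the 2 groups' libraries called 50, and 476 genes were higher and 844 lower at an unadjusted p under 0.05 (3.17% and 5.61%). The comparisons of SKF+Aβ, SKF+Aβ+CSP and CSP-TTK21 alone with SKF share the 2 SKF libraries with the comparison described here, so they are set side by side only. Median log2 fold changes against SKF of the GABA receptor list were 0.39 in SKF+Aβ, 0.27 in SKF+Aβ+CSP, 0.19 in CSP-TTK21 alone and 0.40 in SKF+Aβ+CSP-TTK21. For the NF-kB and STAT3 list they were -0.61, -0.13, -0.39 and -0.43, and for the mitochondrially encoded genes 0.46, 0.55, 0.47 and 0.70, in the same order.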

How the data were processed

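CA1 RNA was depleted of ribosomal RNA, made into stranded libraries and sequenced as paired ends. The authors deposited 1 merged table of raw gene counts, with 32545 genes and 10 libraries. Their text names TopHat2 with Rnor_6.0 and, in the alignment sentence, mm10, while the submitters' processing notes list STAR, HISAT2, RSEM, Salmon and GRCh38. Their text also names Cufflinks and Cuffmerge for transcript quantification, and whether these made the raw counts is not stated. The tool that made the counts, its strand setting and its annotation release are not given in the sources used here, so genes with near-identical copies and overlapping genes may share reads.

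Genes were kept by filterByExpr on the 5 groups, which left 15032, and scaled by TMM. All 10 libraries entered 1 quasi-likelihood fit (edgeR 4.0.16, R 4.3.3) with group means and without covariates, and log2 fold changes are those of that fit, SKF+Aβ+CSP-TTK21 minus SKF. Its standard error is the log2 fold change divided by the square root of F. A gene was called at a Benjamini-Hochberg adjusted p under 0.05 over all genes. DESeq2 1.42.0 and limma 3.58.1 were alternatives, beside other scaling, filters, thresholds and leaving out each library. The tests were checked on simulated data, where a simulation with changed genes gave a share of unchanged genes among the calls above the nominal rate and one without them gave no call, so adjusted p values may be somewhat too small. No batch is given in the labels. Where samples come from the same animals is not given, so p-values measure the spread between these libraries. Replicates of a group differed by more than counting noise (chi-square per degree of freedom 4.73 to 12.1).

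The 14 marker lists, 31 gene lists and 1 list by name pattern, and the comparison itself, were chosen with earlier results of these data known. The list of genes named in the paper's text was chosen by the study on these samples, and 2 of its 8 tested members were lower at an unadjusted p under 0.05, beside 8.78% of all genes, with 1 without SKF replicate 1 and 4 without SKF replicate 2. Named genes were the called genes, in each list without a call up to 2 members with the lowest p, genes in the paper's text, and Crebbp, Ep300, Drd1 and Drd5, apart from a few genes that are not reported here. Chosen after their values were seen were Adcy5, Hdac7, Fos, Egr1, Npas4, Arc, Bdnf, Gabra2, Gabra4, Nfkb2, Socs3, Bcl3, Tapbp, Tap1, Irf1, Col4a1, Kdr, Ssb, Scai, Rnf138, Il4r, Helz2, RT1-N2, Brms1, LOC103692716, SNORA23, SNORD113, 7SK, Tlr2, Vcam1, RT1-A1, B2m, Nfkbiz and the second Y_RNA copy. Promoter windows are from RefSeq, assembly GRCr8, matched by Ensembl identifier or symbol.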

Additional observations from a re-analysis of the deposited data

How the results depend on the processing

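The counts of calls against SKF moved with the tool, the filter and the libraries used. For genes higher and lower, DESeq2 called 252 and 103, DESeq2 without independent filtering 158 and 72, the fit with no filter on low counts 440 and 462, and the fit with a replicate block 59 and 49. An adjusted p under 0.1 gave 115 and 32, 50 and 115 had an unadjusted p below 0.05 and an absolute log2 change over 1.5, and with the adjusted p at that size 0 were higher. Without small structural RNA and mitochondrially encoded genes 0 were higher, and the fit on only the 2 groups' libraries called RT1-N2 higher and LOC103692716 lower, 1 gene each, in place of the Y_RNA (adjusted p = 0.0553, edgeR). Leaving out 1 library gave 0 to 198 higher and 0 to 137 lower, with the highest counts without SKF replicate 2. The single call without SKF replicate 1 was Brms1, which had 53 and 1 counts in the SKF libraries, and the single call without SKF+Aβ+CSP-TTK21 replicate 2 was Mcts1. With library totals only, the split at an unadjusted p under 0.05 was 1142 higher and 1842 lower, against 1620 and 1320, and the median log2 fold change of all genes was -0.08 against -0.01. Against SKF+Aβ, the fit on only the 2 groups' libraries called 1 gene and leaving out 1 library gave 0 to 7, the 7 without SKF+Aβ replicate 2. Against SKF+Aβ+CSP, the replicate block gave 14, only the 2 groups' libraries 50, DESeq2 22 and 18 without independent filtering, and leaving out 1 library 0. The cause of these changes was not tested.

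Log2 fold changes that changed sign were small or rested on 1 library. With library totals only they were -0.0453 for Crebbp and -0.0357 for Ep300. Over the 4 fits that left out a library, Ep300 ranged from -0.116 to 0.152 (-0.0223 without SKF replicate 1), Egr1 from -0.19 to 0.000176, Npas4 from -1.8 to 0.231, Bdnf from -0.714 to 0.157, Il6 from -0.663 to 0.867 (-0.071 without SKF replicate 2), Cxcl1 from -2.19 to 0.595, App from -0.261 to 0.0641, S100b from -0.0311 to 0.323 (-0.0295 without SKF+Aβ+CSP-TTK21 replicate 2) and Brms1 from -0.223 to 5.37. The upper ends of Npas4, Bdnf, Cxcl1, App and Brms1 and the lower end of S100b came without SKF replicate 1, and the lower ends of Ep300 and Il6 and the upper end of Egr1 without SKF+Aβ+CSP-TTK21 replicate 1. The sources do not say that replicate numbers mark shared animals, so the replicate block is given as an alternative only. The deviations of same-numbered SKF and SKF+Aβ+CSP-TTK21 libraries from their group means correlated at -0.069 across 15032 genes. With SKF and SKF+Aβ+CSP-TTK21, in this order, the deviations of SKF+Aβ correlated at 0.145 and 0.237. Those of SKF+Aβ+CSP did so at 0.0571 and -0.048, and those of CSP-TTK21 alone at 0.176 and -0.0409. The counts of 9 lists under each alternative were added after seeing the data.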
